A study of Mus musculus with 8 samples.

Results

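The 10 genes described here govern the passage of a cell from G1 into S phase: the D cyclins Ccnd1, Ccnd2 and Ccnd3, the E cyclins Ccne1 and Ccne2, the transcription factors Myc and Mycn, and the cyclin-dependent kinase (CDK) inhibitors Cdkn1b, Cdkn2a and Cdkn2b. They were taken by symbol, as a set of genes with known roles in this step. No level or test entered the rule, but the choice was made with earlier results of these data known. All 10 were listed in each of the 8 samples, among 20278 genes listed in any sample. Every one of them passed the filter on low counts and was tested.

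RNA was sequenced from N33, a single mouse ESC line of C57BL/6 origin by the labels (C57BL/6J in the study's methods), in 4 culture conditions with 2 replicates each. The condition called G was serum on gelatin without feeders. In F the cells grew in the same serum medium on feeders, which are mouse embryonic fibroblasts (MEFs) whose division was stopped by mitomycin C. F2i was serum with feeders and 2i, the pair of inhibitors CHIR99021 (of Gsk3β) and PD0325901 (of Mek). NB2i was N2B27, a medium without serum, with 2i on poly-L-ornithine and laminin, without feeders. LIF was present in all conditions. The labels give 1000 U/ml LIF with 20% serum for G and F, and 1000 U/ml LIF with 3 μM CHIR99021 and 1 μM PD0325901 for NB2i. They state no inhibitor dose for F2i. By the labels' protocol, ESCs grown on feeders were separated from them by adherence. Samples held 20129641 to 20664488 expected counts each. The 8 ESC markers examined were all above 0 in every sample, with a summed level of 4078 to 4490 FPKM, of which Dppa5a gave 1757.21 to 2294.37 FPKM. Single markers moved within that sum: Utf1 was at 496.91 and 458.63 FPKM in G and at 47.55 and 46.65 FPKM in NB2i, and Nanog at 208.49 and 198.70 FPKM in G and at 465.08 and 481.66 FPKM in F2i. The summed level of 16 fibroblast markers was 24.3 and 25.5 FPKM in G, 230.9 and 241.3 FPKM in F, 592.9 and 606.5 FPKM in F2i, and 5.35 and 6.15 FPKM in NB2i. Postn, Lum, Dcn and Fap had no entry, taken as 0, in both NB2i replicates, and Lum had none in both G replicates. In bulk RNA, fewer cells of a type and less RNA per cell cannot be told apart.

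D cyclins bind Cdk4 and Cdk6 and start the phosphorylation of the retinoblastoma protein, which releases E2F factors. E cyclins bind Cdk2 and complete it. The INK4 proteins block Cdk4 and Cdk6, CIP/KIP proteins such as p27 block Cdk2, and Myc factors promote growth and cycling. Mouse ESCs have a short G1 phase, keep cyclin E high through the cycle and hold the retinoblastoma protein largely phosphorylated. Mitogen signals through Mek and Erk are a classical inducer of D cyclins and Myc, and Gsk3β marks Myc proteins and cyclins for breakdown.

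Promoter sequence from RefSeq (GRCm38.p6, the same assembly as mm10) was found for 6 of the 10 genes. It is shown for Mycn and Ccne1, which fell together with 2i, and for both starts of Cdkn2a, the gene that rose most in NB2i. Each line runs 5′ to 3′ on the gene's own strand, starts 250 bases before the RefSeq start and stops before the more upstream of the RefSeq and GENCODE starts. Capitals mark the E2F letters searched, TTTCGCGC and TTTGGCGC, and no other form of the motif.
Mycn (chr12:12941915-12942086, minus strand): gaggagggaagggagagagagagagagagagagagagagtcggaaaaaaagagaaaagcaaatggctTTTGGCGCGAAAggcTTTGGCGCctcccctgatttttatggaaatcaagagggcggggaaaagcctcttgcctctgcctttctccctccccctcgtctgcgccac
Ccne1 (chr7:38107535-38107740, minus strand): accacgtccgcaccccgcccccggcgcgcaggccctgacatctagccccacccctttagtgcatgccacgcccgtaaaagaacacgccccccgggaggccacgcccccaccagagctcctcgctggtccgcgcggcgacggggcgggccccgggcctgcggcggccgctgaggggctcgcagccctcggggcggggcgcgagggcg
Cdkn2a, p19Arf start (chr4:89294654-89294869, minus strand): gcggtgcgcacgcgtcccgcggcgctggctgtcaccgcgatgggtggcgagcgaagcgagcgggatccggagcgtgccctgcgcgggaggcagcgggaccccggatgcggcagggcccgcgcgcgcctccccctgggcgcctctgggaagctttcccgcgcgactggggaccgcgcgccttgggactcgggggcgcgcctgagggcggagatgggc
Cdkn2a, p16Ink4a start (chr4:89282193-89282442, minus strand): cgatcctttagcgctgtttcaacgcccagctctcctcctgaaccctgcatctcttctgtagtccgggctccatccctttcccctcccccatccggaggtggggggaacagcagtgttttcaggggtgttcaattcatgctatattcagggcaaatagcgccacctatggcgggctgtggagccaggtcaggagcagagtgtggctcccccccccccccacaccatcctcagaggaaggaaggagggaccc
The motifs searched, on both strands of the 250 bases before each start, were E2F (TTTCGCGC and TTTGGCGC), the E-box (CACGTG), TCF/LEF (CTTTGAT and CTTTGAA) and STAT (TTCNNNGAA). Among the windows found for the 10 genes, Mycn held 3 E2F matches, 2 of which overlap, and 1 TCF/LEF match, which lies in the stretch left out above. The windows of Ccne1, Cdkn2a, Cdkn2b, Cdkn1b and Ccnd3 held none of these letters. Other forms of the motifs were not searched, so a window without a match may still hold one. Of all 32851 promoter windows, 0.654% held the E2F motif, 6.02% the E-box, 7.48% the TCF/LEF motif and 7.02% the STAT motif. A match here is a description of letters, not a binding site.

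Ccnd3 was the main D cyclin of N33 ESCs in every condition. Per transcript length it made up 70.9% to 79.7% of the summed D cyclin FPKM over the 8 samples, against 12.1% to 24.1% for Ccnd1 and 0.111% to 11.6% for Ccnd2. The gene spans 47505051 to 47599691 of chromosome 17 (mm10, as for all positions here). Its level was 133.59 and 127.35 FPKM in G, 152.47 and 150.28 FPKM in F, 159.34 and 171.24 FPKM in F2i, and 136.07 and 128.58 FPKM in NB2i. The feeder samples were thus above the feeder-free samples, and G and NB2i overlapped. With edgeR's quasi-likelihood test and Benjamini-Hochberg adjustment, Ccnd3 rose by 1.18-fold from G to F (adjusted p = 0.0003) and by 1.12-fold from F to F2i (adjusted p = 0.0042). It fell by 1.24-fold from F2i to NB2i (adjusted p = 4.5e-06), and the value for NB2i against G was a log2 fold change of 0.09 ± 0.05 (SE, adjusted p = 0.086). The sizes here and in what follows are fitted fold changes with their standard error (SE). The rise from F to F2i was not past the threshold without F2i replicate 2 (log2 fold change 0.11, adjusted p = 0.1) or in the 3 limma settings (adjusted p = 0.054, 0.056 and 0.088).

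**Figure D1:**
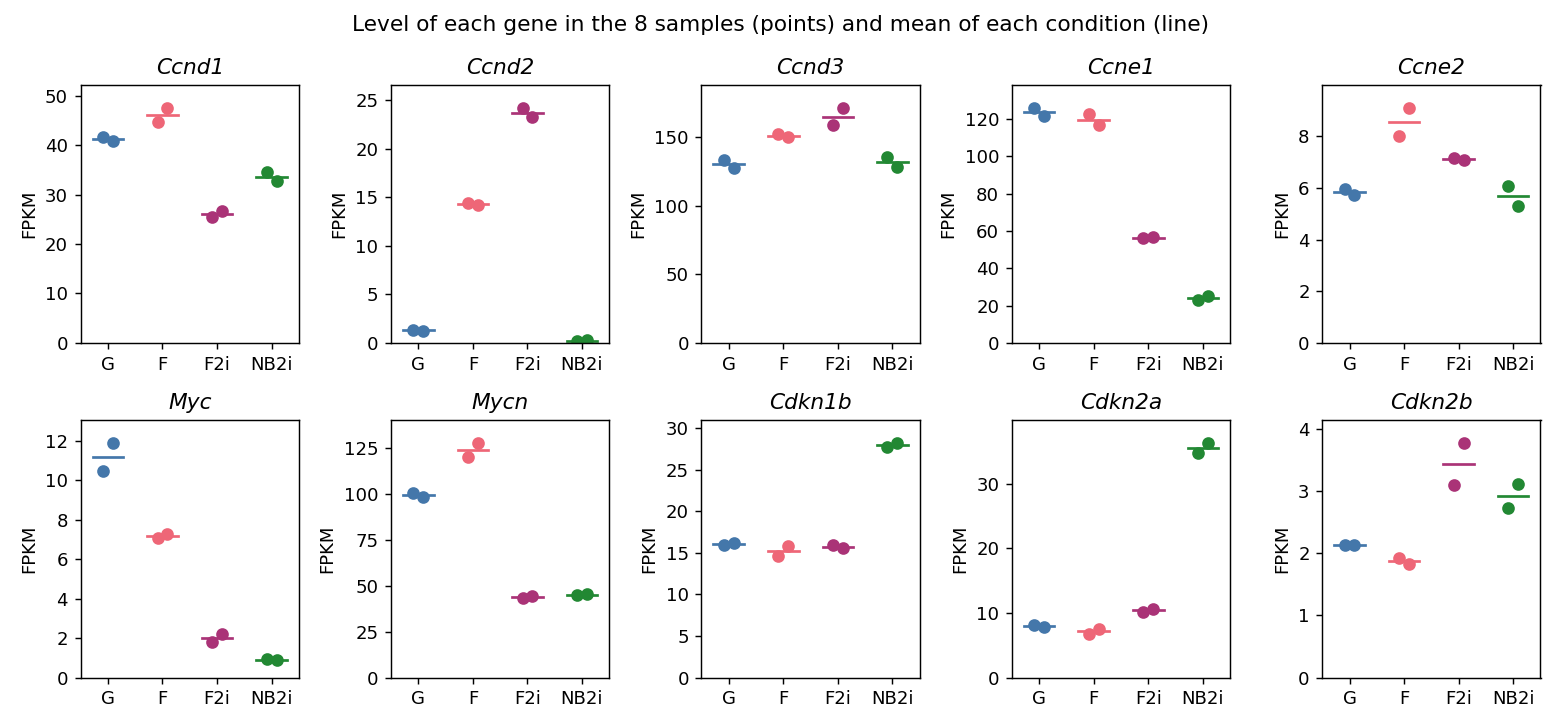
FPKM of each of the 10 genes on a linear axis from 0, with a point for each of the 2 replicates and a line at the mean of each condition. Ccne1, Myc and Mycn are lower in both 2i conditions than in G and F, Cdkn1b and Cdkn2a are highest in NB2i, and Ccnd2 is highest in F2i and F, the conditions with feeders.

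Ccnd1, the D cyclin most closely tied to mitogen signals, was lower with 2i and most so on feeders. Its gene spans 144929931 to 144939925 on chromosome 7. Replicates stood at 41.71 and 40.85 FPKM in G, 44.70 and 47.46 FPKM in F, 25.52 and 26.65 FPKM in F2i, and 34.54 and 32.77 FPKM in NB2i. The 4 conditions did not overlap, in the order F, G, NB2i, F2i, and each neighbour in that order differed by the edgeR test. The fall from F to F2i was 1.72-fold (log2 fold change −0.78 ± 0.05 SE, adjusted p = 6.3e-12). From G to NB2i, the feeder-free pair, it was 1.17-fold (adjusted p = 0.00017). NB2i was 1.30-fold above F2i (adjusted p = 7.8e-07), although both held 2i. The small rise from G to F, 1.13-fold with an adjusted p of 0.003, was not past the threshold without F replicate 2 (adjusted p = 0.082).

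Ccnd2, a D cyclin known for its roles in the gonads and the cerebellum, was low without feeders. The gene spans 127125162 to 127152193 of chromosome 6. Its level was 1.32 and 1.24 FPKM in G, 14.37 and 14.17 FPKM in F, 24.14 and 23.21 FPKM in F2i, and 0.19 and 0.28 FPKM in NB2i. No condition overlapped another, and the order F2i, F, G, NB2i was that of the summed fibroblast markers. Not every single marker had that order: Mmp2 overlapped among G, F and F2i, and Pdgfrb was higher in NB2i than in G. In edgeR's test Ccnd2 was 11.3-fold higher in F than in G (log2 fold change 3.50 ± 0.07 SE, adjusted p = 1.3e-19) and 1.70-fold higher in F2i than in F (adjusted p = 2e-11). It was 99.0-fold lower in NB2i than in F2i (adjusted p = 4.2e-23). Between the 2 feeder-free conditions it was 5.15-fold lower in NB2i (log2 fold change −2.36 ± 0.17 SE, adjusted p = 2.5e-11). The NB2i values rest on 23 and 34 expected counts. Of 16 fibroblast markers, 14 were higher in F than in G at 2-fold, 6 were higher in F2i than in F and all 16 were lower in NB2i than in F2i, with median log2 fold changes of 4.79, 0.63 and −6.83. The part of feeder RNA in the Ccnd2 values was not tested. Between G and NB2i, where both conditions lack feeders, 10 of the 16 markers were also lower in NB2i and 1 was higher.

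**Figure D2:**
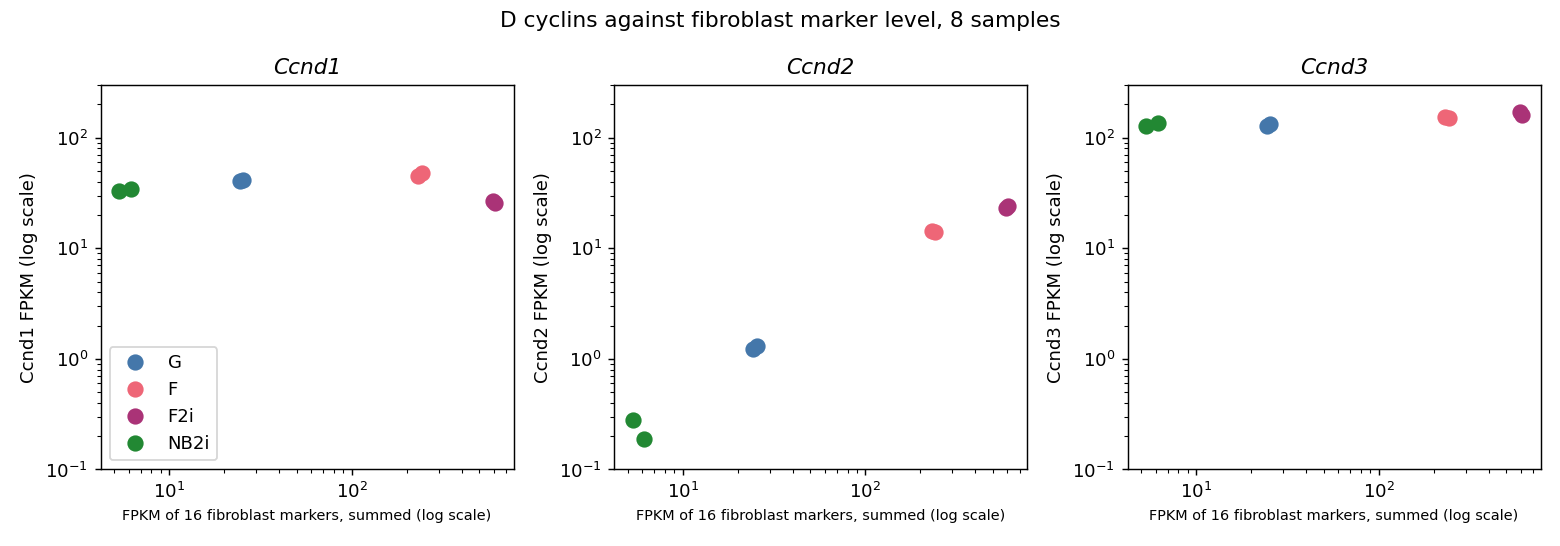
FPKM of Ccnd1, Ccnd2 and Ccnd3 (log axis) against the summed FPKM of 16 fibroblast markers (log axis), 1 point per sample coloured by condition. Condition by condition, Ccnd2 runs from 0.19 to 24.14 FPKM in the order of the marker level, whereas Ccnd1 and Ccnd3 stay within 25.52 to 47.46 FPKM and 127.35 to 171.24 FPKM.

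Ccne1, the cyclin that activates Cdk2 at the end of G1, was high in serum and fell with 2i, further in NB2i than in F2i. The gene is on chromosome 7 (38097984 to 38107534). Replicates were at 125.80 and 121.77 FPKM in G and at 123.00 and 116.66 FPKM in F, so these conditions overlapped. They were at 56.13 and 56.56 FPKM in F2i and at 22.91 and 25.22 FPKM in NB2i, well apart from serum and from each other. The edgeR test gave a log2 fold change of −1.05 ± 0.05 (SE, adjusted p = 2.8e-14) for F2i against F and of −2.30 ± 0.05 (SE, adjusted p = 6e-20) for NB2i against G, a 2.07-fold and a 4.91-fold fall. From F2i to NB2i the level fell by a further 2.33-fold (adjusted p = 1.3e-14). F against G gave −0.02 ± 0.04 (SE, adjusted p = 0.7). The feeder-free pair, in which the fall was the larger, had a fibroblast marker sum of at most 25.5 FPKM. In that pair serum, medium and coating change with 2i. The part of feeder RNA in the Ccne1 values was not tested.

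Ccne2, the other E cyclin, was at a far lower level than Ccne1 and changed by at most 1.49-fold. On chromosome 4 it spans 11191351 to 11204779. Samples showed 5.97 and 5.71 FPKM in G, 8.03 and 9.08 FPKM in F, 7.17 and 7.09 FPKM in F2i, and 6.08 and 5.32 FPKM in NB2i. G and NB2i overlapped, and F was highest. The edgeR test gave a 1.49-fold rise from G to F (adjusted p = 9.9e-06) and a 1.25-fold fall from F2i to NB2i (adjusted p = 0.0028). The latter had an adjusted p of 0.078 without NB2i replicate 2. For F2i against F the log2 fold change was −0.23 ± 0.08 (SE, adjusted p = 0.022), a call that 6 of 14 alternative settings did not give, and it was −0.12 without F replicate 2. For NB2i against G it was 0.03 ± 0.09 (SE, adjusted p = 0.77), with a sign that changed in 6 alternatives. Ccne1 exceeded Ccne2 in every sample, by 21.1 and 21.3 times in G, 15.3 and 12.9 times in F, 7.83 and 7.98 times in F2i, and 3.77 and 4.74 times in NB2i, as ratios of FPKM. Summed E cyclin levels were 131.8 and 127.5 FPKM in G and 29.0 and 30.5 FPKM in NB2i.

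**Figure D3:**
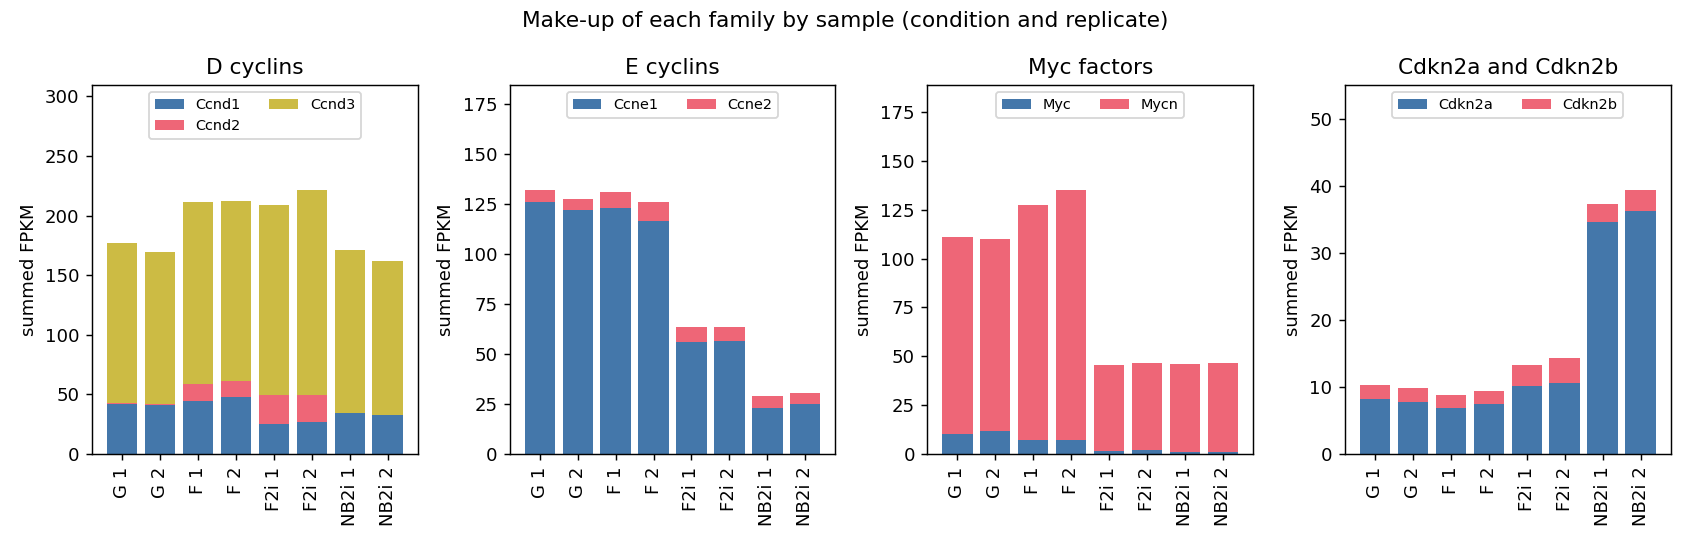
Stacked bars of FPKM per sample, from 0, for the D cyclins, the E cyclins, the Myc factors, and Cdkn2a with Cdkn2b. The D cyclin sum stays between 161.6 and 221.1 FPKM, while the E cyclin and Myc sums are lower in F2i and NB2i than in G and F, and the Cdkn2a part rises in NB2i.

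Myc, the factor whose messenger is short-lived and induced by mitogens, fell in each step from G to F, F2i and NB2i. Chromosome 15 holds it from 61985391 to 61990374. Its level was 10.50 and 11.89 FPKM in G, 7.09 and 7.29 FPKM in F, 1.80 and 2.21 FPKM in F2i, and 0.95 and 0.89 FPKM in NB2i. The conditions did not overlap and each differed from its neighbour. In edgeR's test the log2 fold changes were −0.62 ± 0.08 (SE, adjusted p = 4.4e-06) for F against G, −1.80 ± 0.11 (SE, adjusted p = 1.3e-11) for F2i against F and −1.12 ± 0.17 (SE, adjusted p = 9.2e-06) for NB2i against F2i. From G to NB2i, without feeders in either, Myc fell by 11.6-fold (adjusted p = 1.4e-16). The NB2i values rest on 47 and 44 expected counts, and without F2i replicate 2 the fall from F2i to NB2i was −0.96, short of 2-fold. The paper's quantitative PCR of N33 ESCs found less Myc without feeders than with them, opposite in direction to F against G here. It also found less Myc in 2i without feeders than on feeders, the direction seen here. The reason for the opposite direction in F against G was not tested.

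Mycn, the paralogue prominent in early embryos, was far more abundant than Myc. Mycn spans 12936093 to 12941914 of chromosome 12. Its level was 100.59 and 98.12 FPKM in G, 120.27 and 127.57 FPKM in F, 43.52 and 44.46 FPKM in F2i, and 44.88 and 45.44 FPKM in NB2i. F was above G, and both 2i conditions were below both serum conditions. The rise from G to F was 1.27-fold (adjusted p = 9.9e-07 by edgeR), opposite in sign to that of Myc. Mycn fell by 2.74-fold from F to F2i (log2 fold change −1.46 ± 0.04 SE, adjusted p = 5.3e-17) and by 2.10-fold from G to NB2i (log2 fold change −1.07 ± 0.04 SE, adjusted p = 2.3e-15). NB2i against F2i gave 0.04 ± 0.05 (SE, adjusted p = 0.42), so the levels of Mycn in the 2i conditions differed by less than the fitted spread while Myc fell further. Mycn exceeded Myc by 9.58 and 8.25 times in G, 17.0 and 17.5 times in F, 24.2 and 20.1 times in F2i, and 47.2 and 51.1 times in NB2i. The share of Myc in the summed Myc and Mycn FPKM was at most 10.8%, in G replicate 2, and at least 1.92%, in NB2i replicate 2.

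Cdkn2a encodes 2 unrelated proteins from different first exons, p16Ink4a, an INK4 inhibitor of Cdk4 and Cdk6, and p19Arf, which stabilises p53 through Mdm2. The locus spans 89274471 to 89294653 on chromosome 4. The gene was at 8.21 and 7.81 FPKM in G, 6.83 and 7.52 FPKM in F, 10.19 and 10.59 FPKM in F2i, and 34.69 and 36.28 FPKM in NB2i. Both NB2i replicates were above every other sample, and F2i was above G and F. In edgeR's test Cdkn2a was 4.63-fold higher in NB2i than in G (log2 fold change 2.21 ± 0.09 SE, adjusted p = 7.5e-16) and 3.42-fold higher than in F2i (adjusted p = 3.7e-14). The rise from F to F2i was 1.49-fold (adjusted p = 0.00011), and F against G gave a log2 fold change of −0.14 ± 0.11 (SE, adjusted p = 0.37). The NB2i values rest on 649 and 674 expected counts, in the samples with the lowest fibroblast marker sums, 6.15 and 5.35 FPKM. The part of feeder RNA in the Cdkn2a values was not tested. The deposited values give 1 level per gene, but the deposited transcript length, which RSEM weights by its estimate of the transcripts, was 924.55 to 929.00 bases. In GENCODE the p19Arf transcript is 895 and the p16Ink4a transcript 852 bases long, a difference of 43. A split can be read only if 929.00 is the length of the longer one in the authors' annotation and the difference there is also 43. Neither is known. On that basis the p16Ink4a transcript took 0 to 10.3% of RSEM's estimate over the 8 samples, and 7.49% and 7.95% in NB2i. This split of 50-base reads over transcripts that share their later exons is an estimate without an error.

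Cdkn2b encodes the INK4 inhibitor p15 and lies next to Cdkn2a on chromosome 4, from 89306299 to 89311039. It was low in all samples and higher in F2i and NB2i than in G and F. Its level was 2.13 and 2.13 FPKM in G, 1.93 and 1.83 FPKM in F, 3.09 and 3.77 FPKM in F2i, and 2.73 and 3.11 FPKM in NB2i. The 2i conditions were above the serum conditions and overlapped each other. The edgeR test gave 1.87-fold more in F2i than in F (log2 fold change 0.90 ± 0.18 SE, adjusted p = 0.00016) and 1.44-fold more in NB2i than in G (adjusted p = 0.011). The latter had an adjusted p of 0.081 without NB2i replicate 2 and of 0.14 in DESeq2. NB2i against F2i gave −0.23 ± 0.16 (SE, adjusted p = 0.22). Counts were 52 to 106 per sample. From F to F2i the fibroblast markers rose as well, and the part of feeder RNA in the Cdkn2b values was not tested.

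Cdkn1b encodes p27, the CIP/KIP inhibitor that holds Cdk2 in check in resting cells, and was higher in NB2i than in the other 3 conditions. On chromosome 6 it spans 134920401 to 134925513. Levels were 15.91 and 16.17 FPKM in G, 14.60 and 15.83 FPKM in F, 15.89 and 15.58 FPKM in F2i, and 27.75 and 28.19 FPKM in NB2i. NB2i stood apart, and F and F2i overlapped. By edgeR, NB2i exceeded G by 1.83-fold (log2 fold change 0.87 ± 0.06 SE, adjusted p = 1e-11) and F2i by 1.79-fold (adjusted p = 4.4e-11), short of 2-fold. For F2i against F the log2 fold change was 0.09 ± 0.06 (SE, adjusted p = 0.25), and for F against G it was −0.05 ± 0.06 (SE, adjusted p = 0.53).

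**Figure D4:**
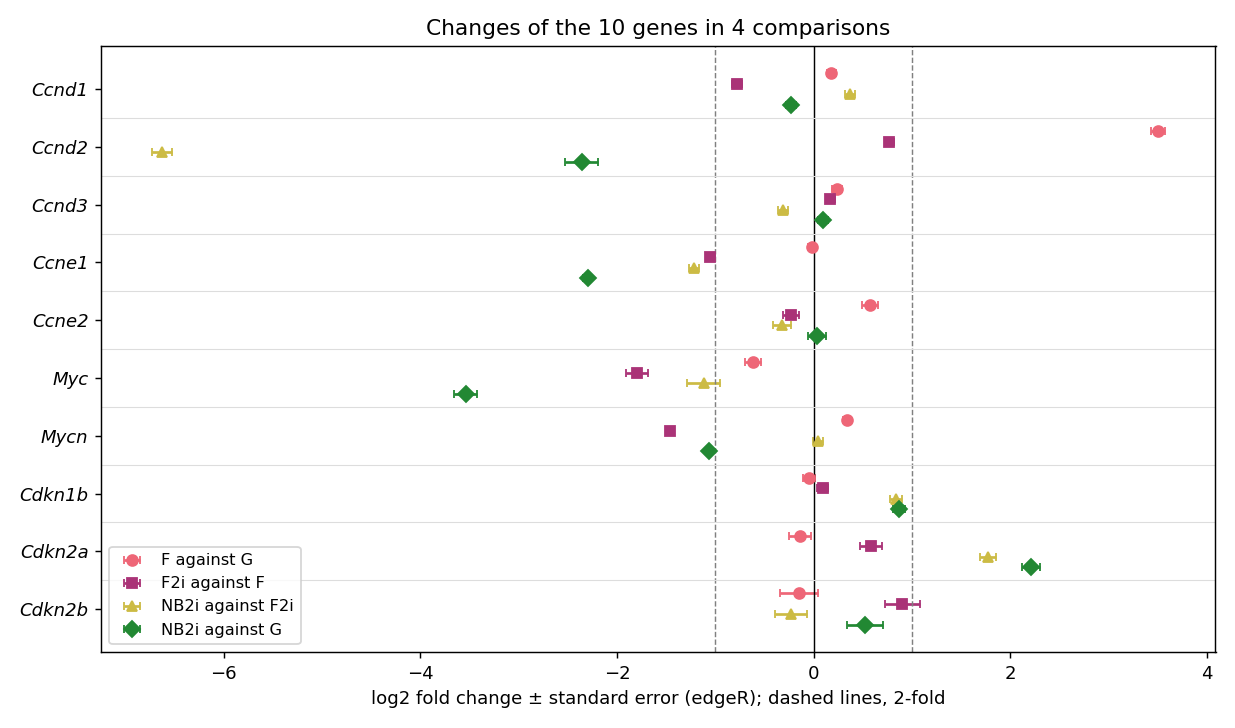
Log2 fold change (x axis) with its standard error from edgeR for each of the 10 genes in 4 comparisons, with dashed lines at 2-fold. For F against G (circles) only Ccnd2 lies beyond 2-fold, for F2i against F (squares) Ccne1, Myc and Mycn do, for NB2i against F2i (triangles) Ccnd2, Ccne1, Myc and Cdkn2a do, and for NB2i against G (diamonds) Ccnd2, Ccne1, Myc, Mycn and Cdkn2a do.

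The comparison of F with G asked what feeders change in serum. At an adjusted p under 0.05 and at least 2-fold, 1 of the 10 genes was called, Ccnd2, beside 7.24% of the 15287 genes tested. At an adjusted p under 0.05 without a limit on size, 5 were higher and 1 lower, where 21.7% and 18.5% of all genes were. The changes of Ccnd1, Ccnd3, Ccne2 and Mycn were increases of 1.13- to 1.49-fold. The samples with feeders also held the fibroblast markers given above, whose part in these small changes was not tested.

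The comparison of F2i with F asked what 2i changes on feeders. Of the 10 genes, 3 were called at 2-fold, against 13.4% of all genes. They were Ccne1, Myc and Mycn, each lower in F2i. At 2-fold 0 of the 10 were higher, where 6.44% of all genes were. Without a limit on size 9 of 10 passed the adjusted p, and 54.8% of all genes did so. With F2i replicate 1 left out, Cdkn2b became a gene higher at 2-fold (log2 fold change 1.04). The comparison of NB2i with F2i, in which feeders, serum, medium and coating change together while both hold 2i, called 4 of 10 genes at 2-fold against 19.3% of all genes. They were Ccnd2, Ccne1 and Myc, lower in NB2i, and Cdkn2a, higher in NB2i. Without a limit on size 8 of 10 passed, where 64.1% of all genes did. In NB2i against G, which changes 2i, serum, medium and coating without feeders on either side, 5 of 10 genes were called at 2-fold against 27.2% of all genes. Ccnd2, Ccne1, Myc and Mycn were lower, where 16.1% of all genes were, and Cdkn2a was higher, where 11.1% were. Without a limit on size 8 of 10 passed, where 72.4% of all genes did. For the order of levels above, F2i against G had 9 of 10 genes past the adjusted p (67.8% of all genes) and NB2i against F had 10 of 10 (73.5%). In each comparison the genes that passed 2-fold differed without overlap between replicates of the conditions compared. A call at 2-fold with 2 replicates and a small fitted spread nearly ensures this, so it is no separate support.

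The pairs F2i with F and NB2i with G share no sample, and the difference between their changes was tested as a contrast in the same fit. Ccne1, Myc and Mycn fell in both pairs. Ccne1 and Myc fell further in the feeder-free pair, by 1.25 ± 0.07 (SE, adjusted p = 3.2e-12) and 1.73 ± 0.19 (SE, adjusted p = 1.7e-07) on the log2 scale. Mycn fell further on feeders, with a difference of −0.39 ± 0.06 (SE, adjusted p = 2.5e-05), and so did Ccnd1, with −0.56 ± 0.07 (SE, adjusted p = 5.1e-07). Cdkn2a rose in both pairs and more in the feeder-free one, with a difference of −1.63 (adjusted p = 4.4e-09, edgeR). For Cdkn1b, which passed the test in NB2i against G (0.87) and not in F2i against F (0.09), the difference was −0.78 (adjusted p = 1.3e-07). Ccnd2 rose in one pair and fell in the other. In all 7 of 10 genes differed, beside 48.9% of all genes tested. In the feeder-free pair serum, medium and coating change with 2i, and on feeders the fibroblast markers rise with 2i, so these influences cannot be told apart.

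**Figure D5:**
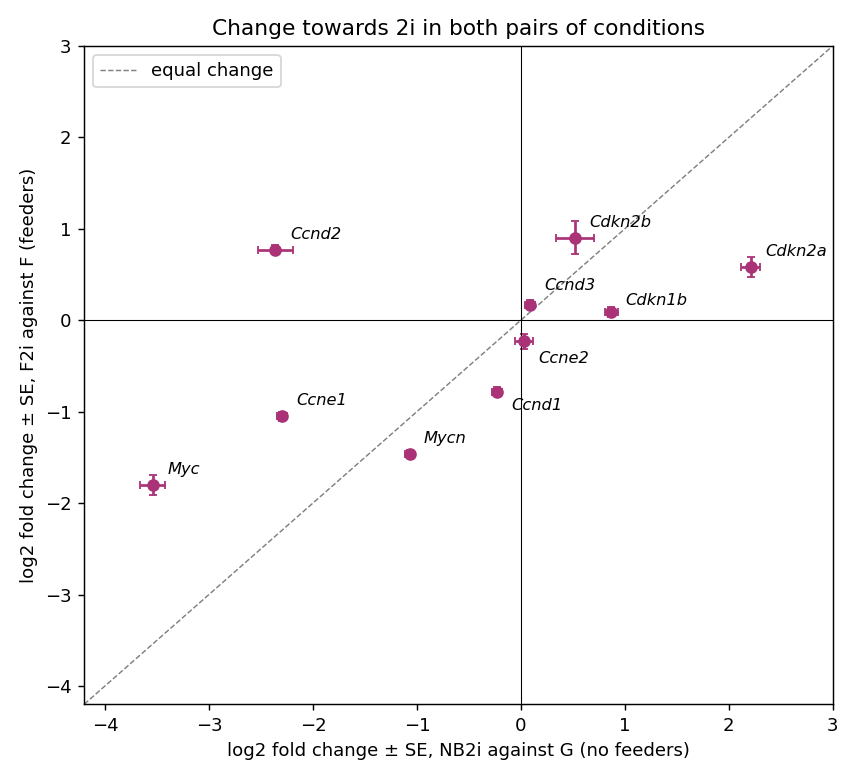
Log2 fold change with standard error of each gene in F2i against F (y axis) and in NB2i against G (x axis), with a dashed line where both changes are equal. Myc, Ccne1 and Mycn lie in the lower left, Cdkn2a and Cdkn2b in the upper right, and Ccnd2 alone far into the upper left, at 0.77 and −2.36.

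Genes that act with the 10 were read from lists of known pathway members. Among 8 G1 kinases and their partners, only Cdk2, the partner of E cyclins, passed 2-fold in NB2i against G, with a log2 fold change of 1.13 ± 0.04 (SE, adjusted p = 6.2e-16 by edgeR). Its level rose from 35.87 and 35.87 FPKM in G to 73.92 and 76.29 FPKM in NB2i, opposite in sign to Ccne1. In F2i against F it rose by 0.43. None of the 8 passed 2-fold in F2i against F. Of all genes tested, 13.4% did so there and 27.2% in NB2i against G.

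Of the 5 other genes named as CDK inhibitors, 2 moved past 2-fold in both pairs and in opposite directions. Of all genes tested, 13.4% passed 2-fold in F2i against F and 27.2% in NB2i against G. Cdkn1a (p21), a CIP/KIP inhibitor and p53 target, rose by 1.07 ± 0.05 (SE, adjusted p = 1.5e-14) in F2i against F and by 2.00 ± 0.05 (SE, adjusted p = 2.2e-19) in NB2i against G. It was at 37.95 and 34.13 FPKM in G, 63.11 and 63.50 FPKM in F, 129.39 and 129.07 FPKM in F2i, and 137.46 and 137.43 FPKM in NB2i. Samples of F were thus also above those of G (log2 fold change 0.83 ± 0.05 SE, adjusted p = 1.4e-11). The fibroblast markers rose from G to F and from F to F2i as well, and the part of feeder RNA in the Cdkn1a values was not tested. Cdkn1c (p57), an imprinted CIP/KIP inhibitor, went the other way, from 21.34 and 22.20 FPKM in G to 2.05 and 1.97 FPKM in NB2i (log2 fold change −3.36 ± 0.09 SE, adjusted p = 2.6e-18). In F2i against F it fell by 2.18 on the log2 scale.

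Among 13 pocket proteins and E2F factors, E2f8 and E2f7, which both encode E2F factors that repress transcription without a DP partner, were lower in NB2i than in G, with −1.32 (adjusted p = 8.9e-14, edgeR) and −1.01 (adjusted p = 3.3e-11). Rbl1 (p107) was higher, with 1.12 (adjusted p = 7.9e-13). In F2i against F, E2f8 alone of the 13 passed 2-fold, with −1.05 (adjusted p = 5e-12, edgeR), while E2f7 gave −0.57 and Rbl1 0.46. Of 10 ubiquitin ligase parts that act on G1 cyclins, Myc and p27, only Usp28, a deubiquitinase that spares Myc from breakdown, passed 2-fold in NB2i against G, with −1.18 (adjusted p = 2.4e-16). Of the 10 partners in the MAX network, Mxd4 passed it with −1.66 ± 0.42 (SE, adjusted p = 0.0012), at 0.83 and 1.25 FPKM in G and 0.37 and 0.25 FPKM in NB2i. Mxd1, a repressing partner of Max, was the one called at 2-fold in F against G (log2 fold change 1.07 ± 0.13 SE, adjusted p = 1.7e-06). The part of feeder RNA in the Mxd1 values was not tested. Of all genes tested, 7.24% were called at 2-fold in F against G, 13.4% in F2i against F and 27.2% in NB2i against G.

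Among genes that carry out S phase, mitosis and growth, Cdc20 alone was called at 2-fold in F2i against F or NB2i against G. Of 22 E2F targets of S phase, 0 were called at 2-fold in edgeR's test of NB2i against G, where 27.2% of all genes were. At an adjusted p under 0.05, 11 of these targets were higher and 4 lower, where 37.0% and 35.5% of all genes were. Their median log2 fold change was 0.10 beside 0.01 over all genes. Pola1, a DNA polymerase subunit, had the largest value, 0.77 ± 0.05 (SE, adjusted p = 1.3e-11), followed by Tk1, a thymidine kinase, with 0.53 ± 0.06 (SE, adjusted p = 2.1e-08). Of 20 mitotic genes, 19 were lower in NB2i than in G at an adjusted p under 0.05 and 1 was higher, where 35.5% and 37.0% of all genes were, and the median was −0.38. Only Cdc20, an activator of the anaphase-promoting complex, passed 2-fold, from 203.32 and 208.82 FPKM in G to 94.89 and 90.93 FPKM in NB2i (log2 fold change −1.08 ± 0.04 SE, adjusted p = 1.2e-15). In F2i against F, 12 mitotic genes were lower and 1 higher, where 27.4% and 27.3% of all genes were, with a median of −0.14.

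Myc and Mycn fell in both F2i against F and NB2i against G. Of 20 growth genes named as Myc targets, 0 passed 2-fold in the former (13.4% of all genes) or the latter (27.2%), by edgeR. At an adjusted p under 0.05, 12 were lower and 3 higher in F2i against F and 11 were lower and 3 higher in NB2i against G. Of all genes, 27.4% were lower and 27.3% higher in the former, and 35.5% and 37.0% in the latter. The medians of the list were −0.17 and −0.18 beside −0.00 and 0.01 over all genes. Odc1, ornithine decarboxylase, fell most, by 0.67 (adjusted p = 4.5e-12) and 0.98 (adjusted p = 2.1e-15) on the log2 scale. Cdk4, which is on this list and also the partner of D cyclins, rose by 0.45 ± 0.04 (SE, adjusted p = 3e-09) in NB2i against G.

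Exons of 4 of the 10 genes overlap those of a gene on the other strand in GENCODE, and the library protocol does not state that strand was kept. Shared bases made up 23.4% of the exonic bases of Ccnd1 (with LTO1), 17.4% of those of Ccne2 (with Ints8), 4.11% of those of Ccnd3 (with Bysl) and, for Ccnd2, 3.95% and 3.91% with 2 antisense genes. Reads from such bases cannot be told apart by strand.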

How the data were processed

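Poly-A RNA of 8 samples (4 conditions, 2 replicates each) was sequenced in the study on a BGISEQ-500 with 50-base reads from 1 end. Reads were aligned to mm10 by the authors using Bowtie2, and RSEM then estimated gene levels (versions not given in the sources used here). As an expected count, the authors deposited the estimated number of reads per gene, unnormalized (29.8% of values were not whole). As FPKM, the authors deposited this estimate scaled to transcript length and library size. A gene not listed for a sample was taken as 0. Depth was 20129641 to 20664488 expected counts per sample.

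After rounding, these counts entered edgeR 4.0.16 (glmQLFit, glmQLFTest, TMM factors 0.9774 to 1.0284) in R 4.3.3, with all 8 samples and the condition as the only factor. The filter asked for 10 counts or more in 2 samples or more and left 15287 of 20278 genes. Benjamini-Hochberg adjustment ran within each comparison, and calls used an adjusted p under 0.05 with, where stated, at least 2-fold. The fitted spread was small (biological coefficient of variation 3.254%). An exact permutation of 2 samples against 2 gives no p below 0.3333, and the adjusted p-values therefore depend on the fitted spread. Standard errors come from the estimate and its F statistic. Scripts were tested on simulated data. Replicates of a condition differed by 1.885 to 3.712 chi-square per degree of freedom, above sampling noise, and were kept apart. The study calls them biological replicates. If they are not separate cultures, p-values measure technical spread.

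The 10 genes, the lists and the motifs were chosen with earlier results of these data known. All 10 genes are named. From each pathway list the rule names up to 4 genes with the smallest adjusted p among those past 2-fold in F2i against F or NB2i against G, or else up to 2 with the largest change. Mxd1 was named after its values were seen. Alternatives were DESeq2 1.42.0 (the tool of the study), its size factors, library size only, other filters, only the groups compared, the replicate block, each replicate left out, glmTreat, and limma 3.58.1 with a pseudocount of 1 or 0.1 on log2 FPKM, with genes of at least 0.5 FPKM in 2 samples or without that filter. Positions are from GENCODE M21 (mm10), counted from 1, and promoters from RefSeq.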

Additional observations from a re-analysis of the deposited data

Results flagged for a closer look

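The change towards 2i differed between the feeder pair (F2i minus F) and the feeder-free pair (NB2i minus G) for 7 of the 10 genes, by edgeR's test of the difference itself. On the log2 scale, with positive values for a change that is higher on feeders, the differences were 3.13 for Ccnd2, 1.73 for Myc, 1.25 for Ccne1, −0.39 for Mycn, −0.56 for Ccnd1, −0.78 for Cdkn1b and −1.63 for Cdkn2a. Adjusted p-values ran from 2.5e-12 (Ccnd2) to 2.5e-05 (Mycn), and 48.9% of all genes tested passed the same test. For Ccnd2 the changes had opposite signs, in all samples.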

How the results depend on the processing

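With 2 replicates per condition, calls rest on a fitted spread shared across genes, and a sample left alone in its group is assumed to vary like the others. Counts of the 10 genes called stayed within 1.5 times in all alternatives run except one: in F2i against F, 0 genes were higher, and 0 to 1 with each replicate left out in turn, Cdkn2b passing without F2i replicate 1. Replicate numbers did not pair the samples (mean r of deviations −0.00355, range −0.0456 to 0.0538 over 6 pairs of groups), and with the replicate block 3 of the 10 genes were lower in F2i against F and 4 in NB2i against G, as without it. Signs changed only for values near 0. Ccne2 in NB2i against G came to −0.037 with library size only, −0.032 and −0.037 in limma on log2(FPKM + 1) and log2(FPKM + 0.1), −0.032 without a filter, and −0.067 to 0.138 with 1 replicate left out (−0.067 without NB2i replicate 1, −0.003 without G replicate 2). Cdkn1b in F2i against G came to −0.028, −0.026, −0.028 and −0.026 in the first 4 of these. With 1 replicate left out, F against G ran from −0.060 to 0.008 (without F replicate 2) for Ccne1 and from −0.119 to 0.006 (without F replicate 1) for Cdkn1b. Limma on log2(FPKM + 1) shrank low genes by its pseudocount: Ccnd2 in NB2i against G to −0.89 and Myc in NB2i against F2i to −0.64, under 2-fold. In NB2i against F2i, Ccnd2 came to −4.32 at the least. The same setting without a filter called 1.45% of all genes in F against G (7.24% in edgeR), 3.55% in F2i against F (13.4%), 5.33% in NB2i against F2i (19.3%) and 9.69% in NB2i against G (27.2%). The difference between pairs was called for 25.6% in DESeq2 (48.9%). The shares in DESeq2 and in limma without a filter are of all 20278 genes listed. Those of edgeR are of the 15287 genes tested, so the 2 kinds of share do not have the same base.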

Other observations

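For the 3 of the 10 genes with the widest range of condition means, the genes most like them in pattern were read as Pearson's r of log2 CPM (counts scaled to library size) over the 8 samples, among 5841 genes whose condition means span at least 1 on the log2 scale. With 4 conditions of 2 replicates such an r is a description of 4 levels, and many genes reach a high value: 273 were above 0.95 for Ccnd2, 680 for Myc and 383 for Cdkn2a. For Ccnd2 the 5 nearest were Xist (r = 0.9991), Zscan4f (0.9981), Mep1b (0.9980), Col8a1 (0.9979) and Tgfb3 (0.9979). Xist, the RNA that coats the inactive X chromosome of female cells, was at 0.27 and 0.25 FPKM in G, 1.04 and 0.88 FPKM in F, 1.38 and 1.32 FPKM in F2i, and 0.09 and 0.09 FPKM in NB2i. By the study's methods N33 is XY, as are all its ESC lines but NF2. The source of the Xist RNA was not tested. For Myc they were Cdc20 (0.9991), Sept6 (0.9985), Ppp1r9a (0.9982), Cyfip2 (0.9979) and Arap3 (0.9976), and for Cdkn2a they were Fndc3a (0.9988), Clybl (0.9984), Chrna4 (0.9973), Pck2 (0.9971) and Amdhd2 (0.9969).

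Markers of other cell types that an ESC culture can hold were summed as FPKM in each sample. The 8 primitive endoderm markers came to 5.61 and 4.57 FPKM in G, 12.98 and 13.54 FPKM in F, 5.62 and 5.44 FPKM in F2i, and 3.21 and 3.39 FPKM in NB2i. Their sum was thus highest in F, where Dab2 gave 5.07 and 5.25 FPKM. Hnf4a was instead highest in F2i, at 0.21 and 0.28 FPKM, and Sox17 overlapped between F and F2i. The others of this list were highest in F. The sum of the 8 trophoblast markers was highest in G, at 191.3 and 184.8 FPKM, and lowest in F2i, at 48.2 and 50.8 FPKM. Krt8 (59.87 and 58.90 FPKM) and Krt18 (78.15 and 74.28 FPKM) gave most of the sum in G, and Hand1 was also highest there. Other markers had another order: Gata3 and Cdx2 were highest in F2i, and Eomes and Tfap2c in NB2i. Early differentiation markers, 8 genes, had sums of 39.2 and 38.5 FPKM in G and 14.2 and 14.9 FPKM in F2i, with F and NB2i between them. Not all followed the sum: Otx2 and T were highest in NB2i, and Pax6 in F. The part of cells with these markers in the values of the 10 genes was not tested.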
